A study of Mus musculus with 24 samples.

Results

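A group of 7 genes was followed that carries the uptake of filtered protein in the kidney, and all 7 were found by symbol among the 56941 genes of the deposited count table. The genes were *Lrp2*, *Cubn*, *Amn*, *Lrpap1*, *Dab2*, *Clcn5* and *Ocrl*, a set given by name and not by any measured value. Kidneys came from male C57BL/6J wild-type mice aged 8–11 weeks at surgery. Myocardial infarction (MI) was induced by tying off the left anterior descending coronary artery for good, and kidneys were collected 5d or 28d later. Mice of the sham group were operated on but the artery was not tied, and the study's account places their collection at 5d, so that no sham kidney of 28d stands beside the later time. RNA of whole kidney was sequenced by MACE, which sequences the 3′ end of each transcript and tags molecules before amplification so that copies are counted once. The counts of 22 kidneys could be used, 8 of the sham group, 8 of the 5d post-MI group and 6 of the 28d post-MI group.

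The proximal tubule recovers albumin, vitamin carriers, hormones and enzymes that pass the glomerular filter. Megalin, encoded by *Lrp2*, and cubilin, encoded by *Cubn*, bind these proteins at the brush border. Cubilin has no membrane anchor and depends on amnionless, the product of *Amn*, to reach the cell surface. The adaptor Dab2 binds the tail of megalin and links it to the clathrin coat, and the chloride-proton exchanger ClC-5 (*Clcn5*) and the lipid phosphatase OCRL act in the endosomes that follow. Human mutations in *CLCN5* and *OCRL* cause loss of low-molecular-weight proteins in the urine. The comparisons ask whether transcripts of this machinery differ in the kidney after MI.

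Total counts ranged from 2280618 to 3786275 per kidney and were lower, without a significant difference, at 28d post-MI (difference of the mean log2 total from sham −0.163, two-sided exact permutation test, p = 0.204). Values are given as CPM, the counts of a gene relative to the kidney's total, after TMM scaling, which adjusts each kidney's total for the composition of its RNA. The sodium-phosphate transporter gene *Slc34a1*, a defining marker of the proximal tubule, had a mean of 4281 CPM in sham kidneys, whereas *Slc5a2*, another defining marker, was near 0 with 0.310 CPM. Genes of adrenal steroid synthesis summed to 959 CPM in sham kidney 2, 714 CPM in sham kidney 6 and 83.4 CPM in kidney 5 at 5d post-MI, and to at most 4.24 CPM in the other 19 kidneys. The tests between groups and the correlations below were therefore also run without both of these sham kidneys.

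None of the 7 members was differentially expressed at an adjusted p-value under 0.05 (edgeR quasi-likelihood test, Benjamini-Hochberg over all 12780 tested genes) in any comparison. The share of all tested genes that passed was 0.0704% for 5d post-MI against sham, 0.0235% for 28d post-MI against sham and 0.415% for 28d against 5d post-MI. For no member were the groups free of overlap, against 0.0548%, 0.258% and 0.344% of all genes in the same order. The 95% intervals nevertheless bound the changes closely. Over all members, they reached from 0.832-fold to 1.23-fold at 5d against sham and from 0.744-fold to 1.19-fold at 28d against sham, and both of these lower limits belong to *Ocrl*, the member with the fewest counts. At an unadjusted p-value under 0.05, 1 member was higher at 5d post-MI than in sham, 2 were higher at 28d post-MI than in sham, and 2 were higher at 28d than at 5d, whereas 3.93%, 4.47% and 5.04% of all genes were higher by that criterion. No member was lower by it, against 3.96%, 4.23% and 4.01% of all genes. At 28d against sham this count of 2, *Lrp2* and *Lrpap1*, was 0 without sham kidneys 2 and 6 (edgeR unadjusted p = 0.0578 and 0.126) and 0 by library totals (unadjusted p = 0.0546 and 0.147). With proximal tubule markers as a covariate the unadjusted p was 0.05 for *Lrp2* and 0.19 for *Lrpap1* in the edgeR fit. With any 1 kidney left out, *Lrp2* kept an unadjusted p under 0.05 in 22 of 22 fits (edgeR) and *Lrpap1* in 10 of 22. No member was called at the adjusted threshold in these fits.

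**Figure D1:**
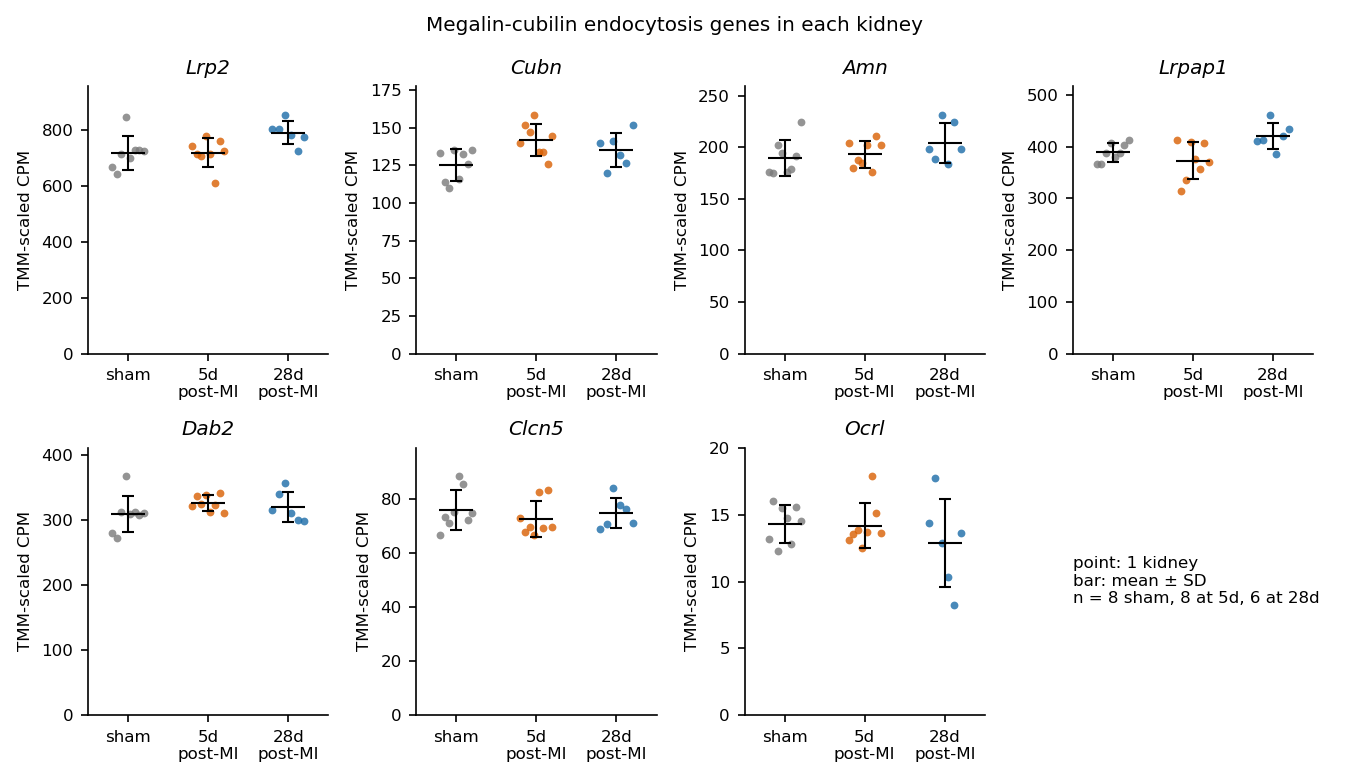
TMM-scaled CPM of each member (y axis, from 0) in each kidney of the 3 groups, with 1 point per kidney and bars for the mean and SD. The groups overlap for every member, *Cubn* is highest on average at 5d post-MI (142 CPM), *Lrp2* (790.2 CPM) and *Lrpap1* (421 CPM) are highest on average at 28d post-MI, and *Ocrl* spreads most at 28d post-MI.

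Megalin is the large endocytic receptor of the brush border that binds most of the filtered proteins. Its gene, *Lrp2* (ENSMUSG00000027070), lies on the minus strand at chr2:69424340-69586065 (GRCm38). In sham kidneys *Lrp2* ranged from 642 to 847 CPM with a median of 718, at 5d post-MI from 608 to 779 CPM with a median of 719.6, and at 28d post-MI from 726 to 854 CPM with a median of 792. Means were the same in sham (718 ± 60.4 CPM, SD, n = 8) and at 5d post-MI (718 ± 51.0 CPM, SD, n = 8) and higher at 28d post-MI (790.2 ± 42.2 CPM, SD, n = 6). Each of the 6 kidneys at 28d lay above both means, and 4 of them lay above every kidney at 5d, but only 1 lay above every sham kidney. Sham kidney 4 had the highest value of its group by a wide gap, and kidney 7 at 5d the lowest of its own.

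The log2 fold change of *Lrp2* at 28d post-MI against sham was 0.14 (SE 0.053, 95% interval 0.029 to 0.25, edgeR adjusted p = 0.443). Against 5d post-MI it was 0.14 as well (SE 0.053, edgeR adjusted p = 0.371). At 5d against sham the interval was −0.10 to 0.10, which corresponds to 0.932-fold to 1.07-fold. Of the 14 tested markers of the proximal tubule other than the members, none was called at 28d against sham, and 11 had a log2 fold change above 0 and 3 below. Of 4 tested markers of the early part of the tubule 3 were below 0 (median −0.20). All 4 of its late part were above 0 (median 0.15), and none of either part was called. The early markers *Slc5a12*, *Slc34a1* and *Slc4a4* are also among the 14. The listed early markers summed to 4958 ± 417 CPM in sham and 4936 ± 381 CPM at 28d post-MI (SD), mostly from *Slc34a1*. The late markers summed to 1885 ± 170 CPM in sham and 2152 ± 120 CPM at 28d (SD). A difference between the segments was not tested. The summed level of all 16 listed proximal tubule markers was 17812 ± 1528 CPM in sham (SD, n = 8; range 16138 to 19947) and 19002 ± 1364 CPM at 28d post-MI (SD, n = 6; range 17674 to 21154), with widely overlapping ranges. With the mean log2 CPM of the 14 tested markers as a covariate, the log2 fold change of *Lrp2* at 28d against sham was 0.093 (edgeR adjusted p = 0.654). In whole kidney, fewer cells of a type and less RNA per cell cannot be told apart.

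Cubilin is the peripheral receptor for intrinsic factor-vitamin B12, transferrin and albumin. *Cubn* (ENSMUSG00000026726, minus strand, chr2:13276338-13491813) had the lowest p-value of the 7 members at 5d post-MI. Sham kidneys ranged from 110 to 135 CPM with a median of 129, kidneys at 5d post-MI from 126 to 159 CPM with a median of 142, and kidneys at 28d post-MI from 120 to 152 CPM with a median of 136. All 8 kidneys at 5d lay above the sham mean and 5 of them above every sham kidney. The mean was 125 ± 10.5 CPM in sham kidneys (SD, n = 8), and those of the MI groups were 142 ± 10.6 CPM at 5d (SD, n = 8) and 135 ± 11.3 CPM at 28d (SD, n = 6).

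For *Cubn* the log2 fold change at 5d against sham was 0.18 (SE 0.058, 95% interval 0.062 to 0.30), with an unadjusted p = 0.00357 and an adjusted p = 0.40 in the edgeR fit. When each kidney was left out in turn, the log2 fold change stayed between 0.15 and 0.20, and its adjusted p between 0.246 and 0.571. Without the 2 sham kidneys rich in adrenal genes it was 0.17 (edgeR unadjusted p = 0.0117, adjusted p = 0.638). Kidney 5 at 5d, with 83.4 CPM of adrenal genes and the highest *Cubn* value, stayed in that fit. At 28d against sham the log2 fold change was 0.11 (SE 0.063, edgeR adjusted p = 0.662), and 28d differed from 5d by −0.072 (95% interval −0.20 to 0.055, edgeR adjusted p = 0.802), so that the 2 times were not shown to differ. A gene on the opposite strand, Gm13270, overlaps *Cubn* in the annotation. Its mean was 0.651 CPM over all kidneys, and reads of the 2 genes cannot be told apart where the strand setting is not given in the sources used here.

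Amnionless anchors cubilin in the membrane. *Amn* (ENSMUSG00000021278, plus strand, chr12:111271095-111276426) ranged from 175 to 224 CPM in sham (median 185), from 176 to 211 CPM at 5d post-MI (median 195) and from 184 to 232 CPM at 28d post-MI (median 198). The 3 ranges overlapped widely, and 2 kidneys at 28d exceeded every sham kidney. The log2 fold change was 0.025 at 5d against sham (95% interval −0.09 to 0.14, edgeR adjusted p = 0.954) and 0.10 at 28d against sham (95% interval −0.02 to 0.23, edgeR adjusted p = 0.662). At 5d, 4 of 8 kidneys lay above the sham mean of *Amn*, where 8 of 8 did so for *Cubn*, and the difference between the changes of the 2 genes was not tested.

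The receptor-associated protein is a chaperone of the endoplasmic reticulum that keeps megalin and its relatives from binding ligands too early. Its gene, *Lrpap1* (ENSMUSG00000029103, minus strand, chr5:35091501-35105766), ranged from 366 to 413 CPM in sham (median 388), from 314 to 413 CPM at 5d post-MI (median 374) and from 385 to 462 CPM at 28d post-MI (median 416). At 5d, 3 of 8 kidneys lay below every sham kidney, and at 28d, 3 of 6 lay above every sham kidney. The mean was 389 ± 18.0 CPM in the sham group (SD, n = 8), 373 ± 36.1 CPM in the 5d group (SD, n = 8) and 421 ± 25.8 CPM in the 28d group (SD, n = 6).

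*Lrpap1* had the lowest p-value of the members between the MI times. It was higher at 28d than at 5d by a log2 of 0.17 (SE 0.055, 95% interval 0.062 to 0.29), with all 6 kidneys above the 5d mean, an unadjusted p = 0.00309 and an adjusted p = 0.207 in the edgeR fit. Leaving out each kidney in turn gave adjusted p-values from 0.101 to 0.454. With the proximal tubule list as a covariate the difference was 0.12 (edgeR adjusted p = 0.478). The summed level of all 16 markers of that list was 17457 ± 1389 CPM at 5d (SD, n = 8; range 15149 to 18864), below that at 28d. Against sham, *Lrpap1* differed by −0.060 at 5d (edgeR adjusted p = 0.833) and by 0.11 at 28d (edgeR adjusted p = 0.564).

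Dab2 couples the cytoplasmic tail of megalin to clathrin and its adaptors, and it is also present in cells outside the tubule. *Dab2* (ENSMUSG00000022150, plus strand, chr15:6299788-6440712) ranged from 273 to 367 CPM in sham (median 309), from 309.9 to 341 CPM at 5d post-MI (median 323) and from 298 to 356 CPM at 28d post-MI (median 313). All 8 kidneys at 5d lay above the sham mean, and all kidneys of both MI groups fell within the sham range. Their spread was unequal, with a coefficient of variation of 3.59% at 5d, where counting error alone accounts for 3.24%, and of 9.11% in sham. The log2 fold change was 0.076 at 5d (95% interval −0.026 to 0.18, edgeR adjusted p = 0.768) and 0.050 at 28d (95% interval −0.060 to 0.16, edgeR adjusted p = 0.867). The antisense genes Gm16311 and Gm18888, which overlap *Dab2*, had means of 0.0442 and 0 CPM.

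ClC-5 exchanges chloride for protons and supports the acidification of early endosomes. *Clcn5* (ENSMUSG00000004317, minus strand, chrX:7153810-7319358) ranged from 66.4 to 88.3 CPM in sham (median 73.8), from 66.5 to 83.2 CPM at 5d post-MI (median 69.5) and from 68.7 to 84.0 CPM at 28d post-MI (median 73.5). The ranges of both MI groups lay inside that of sham. Its log2 fold change was −0.065 at 5d (95% interval −0.20 to 0.067, edgeR adjusted p = 0.875) and −0.020 at 28d (95% interval −0.16 to 0.12, edgeR adjusted p = 0.974).

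OCRL removes a phosphate from phosphatidylinositol bisphosphate on endosomes and coated vesicles. *Ocrl* (ENSMUSG00000001173, plus strand, chrX:47912387-47965868) rested on only 21 to 60 counts per kidney. It ranged from 12.3 to 16.03 CPM in sham (median 14.7), from 12.5 to 17.9 CPM at 5d post-MI (median 13.7) and from 8.28 to 17.8 CPM at 28d post-MI (median 13.3). The lowest values were in 2 kidneys at 28d, which lay below every sham kidney, while 1 kidney at 28d lay above every sham kidney. The interval at 28d against sham, −0.43 to 0.12 on the log2 scale around −0.15 (edgeR adjusted p = 0.818), is the widest of the 7 members, and counting error alone gives a coefficient of variation of 17.4% at this depth. The value rested on single kidneys, since it was −0.058 without kidney 6 at 28d and −0.27 without kidney 2 at 28d.

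**Figure D2:**
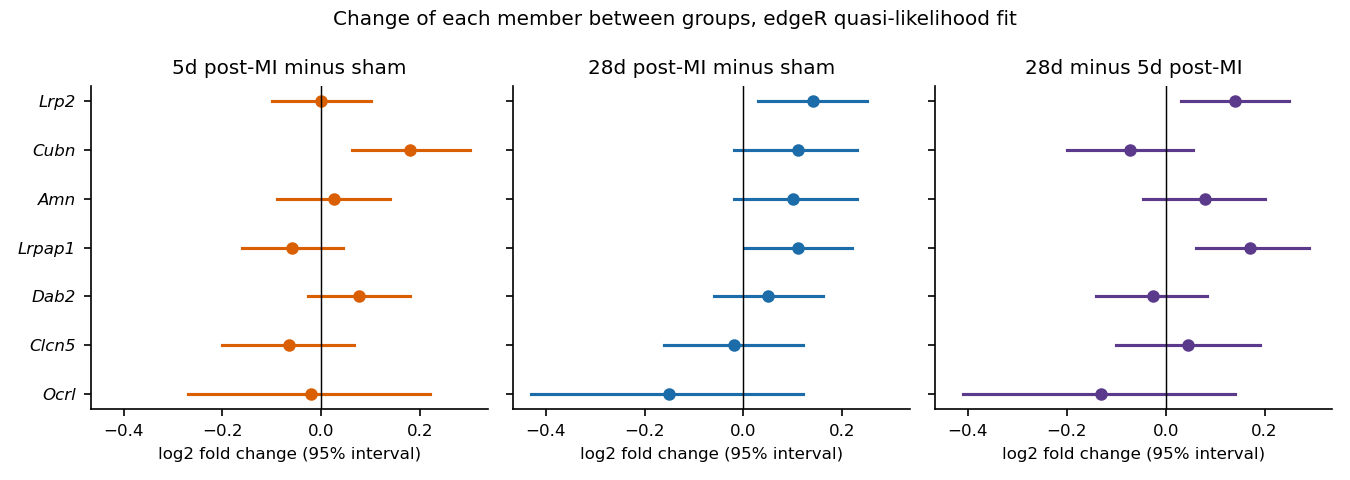
Log2 fold change of each member (x axis) with its 95% interval as a line, in 3 panels for 5d post-MI minus sham, 28d post-MI minus sham and 28d minus 5d post-MI. The interval of *Cubn* lies above 0 in the first panel (0.062 to 0.30), those of *Lrp2* and *Lrpap1* lie above 0 in both panels with the 28d group, and every other interval spans 0, without any adjustment for the number of genes.

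Apart from *Ocrl*, the members varied little between kidneys of 1 group. On the log2 CPM scale the SD within groups was 0.0987 for *Dab2*, 0.104 for *Lrp2* and 0.106 for *Lrpap1*, against a median of 0.222 over all tested genes. Only 5.56%, 6.97% and 7.46% of tested genes, respectively, had a smaller SD. For *Cubn*, *Amn* and *Clcn5* the share was 10.9%, 11.7% and 13.6%, and for *Ocrl* 50.8%. Genes with many counts have less counting error, so these percentages describe precision as well as stability.

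It was next asked which members rise and fall together from kidney to kidney within a group. Log2 CPM was taken as the deviation from the group mean in 22 kidneys, and all 21 pairs were tested by permutation of kidneys within groups (100000 resamples, two-sided, Benjamini-Hochberg over the 21 pairs). The correlation was significant for 2 pairs, the receptor *Lrp2* with its adaptor *Dab2*, and *Amn* with the chaperone gene *Lrpap1*. Over all pairs Pearson's r ran from −0.31 to 0.77 and was above 0 in 17 pairs.

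*Lrp2* and *Dab2* had r = 0.77 (permutation p = 7e-05, adjusted p = 0.00147) and Spearman's rho = 0.71 (permutation p = 0.00055, adjusted p = 0.00577). Without the 2 kidneys farthest from the median of *Lrp2*, sham kidney 4 and kidney 7 at 5d, r was 0.82. Without the 2 sham kidneys rich in adrenal genes r was 0.73 (permutation, adjusted p = 0.0139) and rho 0.60 (permutation, adjusted p = 0.0517). Within groups r was 0.98 in sham and 0.87 at 28d but 0.35 at 5d. At 5d *Dab2* hardly varied and kidney 7 stood apart in *Lrp2*, and the reason for the lower r was not tested. Among all 12779 other tested genes, *Dab2* ranked 2nd by its r with *Lrp2*, and *Lrp2* ranked 4th by its r with *Dab2*.

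*Amn* and *Lrpap1* had r = 0.64 (permutation p = 0.00068, adjusted p = 0.00714) and rho = 0.71 (permutation p = 0.00035, adjusted p = 0.00577), with r = 0.80 in sham, 0.61 at 5d and 0.78 at 28d. The relation was r = 0.58 without sham kidney 8 and kidney 3 at 28d, and its adjusted p was then 0.0595 by permutation. Without the adrenal-rich kidneys it was r = 0.63 (permutation, adjusted p = 0.0162). Among all 12779 other tested genes, *Lrpap1* ranked 80th by its r with *Amn*, and *Amn* ranked 241st by its r with *Lrpap1*. *Lrp2* and *Lrpap1* had r = 0.53 (permutation p = 0.0126, adjusted p = 0.0881) but rho = 0.67 (permutation p = 0.00132, adjusted p = 0.00924), and without the same 2 kidneys as for *Dab2* r was 0.58 (permutation, adjusted p = 0.0109). Here *Lrpap1* ranked 181st by its r with *Lrp2*, and *Lrp2* ranked 566th by its r with *Lrpap1*. *Cubn* was not significantly correlated with its membrane partner *Amn* (r = 0.003, permutation p = 0.99), and its r with *Lrp2* was 0.36 (permutation p = 0.126, adjusted p = 0.44). Without sham kidney 3 and kidney 8 at 5d, the farthest for *Cubn*, its r with *Amn* was 0.20 and rho 0.29. That r was not significant (permutation, adjusted p = 0.52). Without the 2 farthest kidneys of *Lrp2*, the r of *Cubn* with *Lrp2* was 0.24.

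**Figure D3:**
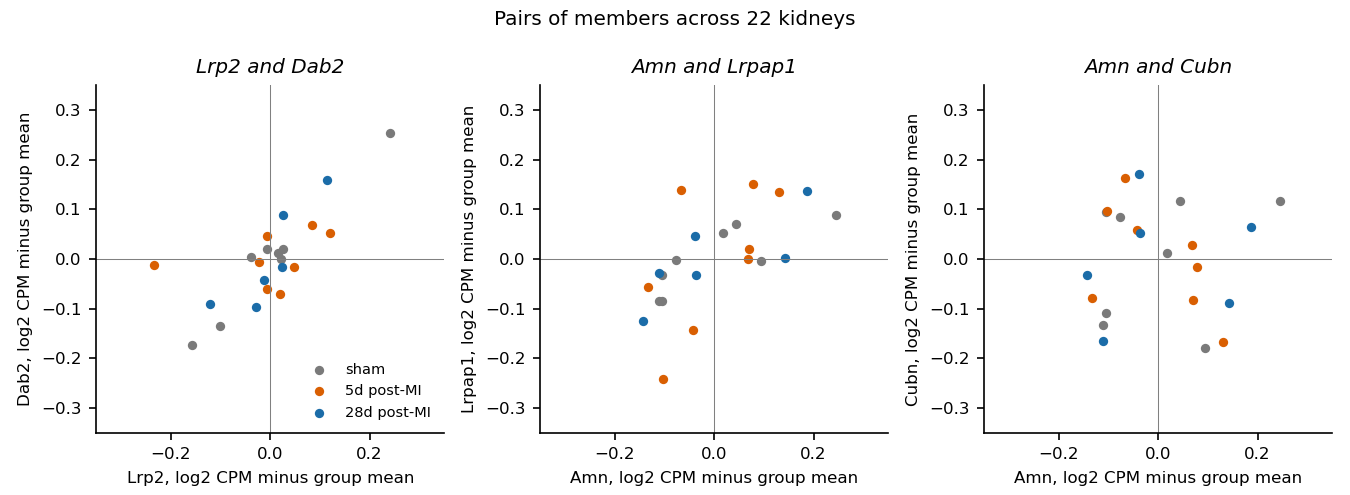
Log2 CPM minus the group mean of 2 members plotted against each other in 22 kidneys, coloured by group, for *Lrp2* and *Dab2* (r = 0.77), *Amn* and *Lrpap1* (r = 0.64) and *Amn* and *Cubn* (r = 0.003). The first pair lies along a rising line, with kidney 7 at 5d post-MI to its left and sham kidney 4 at its upper end, and *Amn* with *Cubn* forms a cloud.

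These correlations were set beside the content of proximal tubule RNA. The deviation of 14 proximal tubule markers, averaged, correlated with *Lrp2* and *Lrpap1* (both r = 0.69), *Amn* (r = 0.66) and *Dab2* (r = 0.65), with adjusted p-values from 0.00042 to 0.00651 over 7 relations (permutation test). Without the 2 farthest kidneys of each gene the r was 0.61, 0.76, 0.57 and 0.49 in this order, and rho over all kidneys was 0.65, 0.75, 0.65 and 0.58. For *Cubn* (r = 0.16), *Clcn5* (r = 0.036) and *Ocrl* (r = −0.037) the relation was not significant, with unadjusted permutation p-values from 0.516 to 0.882. Without the 2 farthest kidneys of each gene their r was 0.35, 0.18 and −0.12, and these values were not tested. *Cubn*, *Clcn5* and *Ocrl* also had the fewest counts of the members. Counting error alone gave a coefficient of variation of 4.92% to 5.26% for *Cubn*, 6.57% to 7.06% for *Clcn5* and 15.1% to 17.4% for *Ocrl*. For the other members it was 2.13% to 4.27%. The part of counting error in the lower r was not tested. With the marker average taken out of both genes, r was 0.59 for *Lrp2* and *Dab2*, 0.34 for *Amn* and *Lrpap1* and 0.10 for *Lrp2* and *Lrpap1*. Without the adrenal-rich kidneys the r with the markers was 0.67 for *Lrp2*, 0.68 for *Lrpap1*, 0.64 for *Amn* and 0.62 for *Dab2* (permutation, adjusted p from 0.00231 to 0.0181). The part of tubule content in each of these relations was not tested further.

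**Figure D4:**
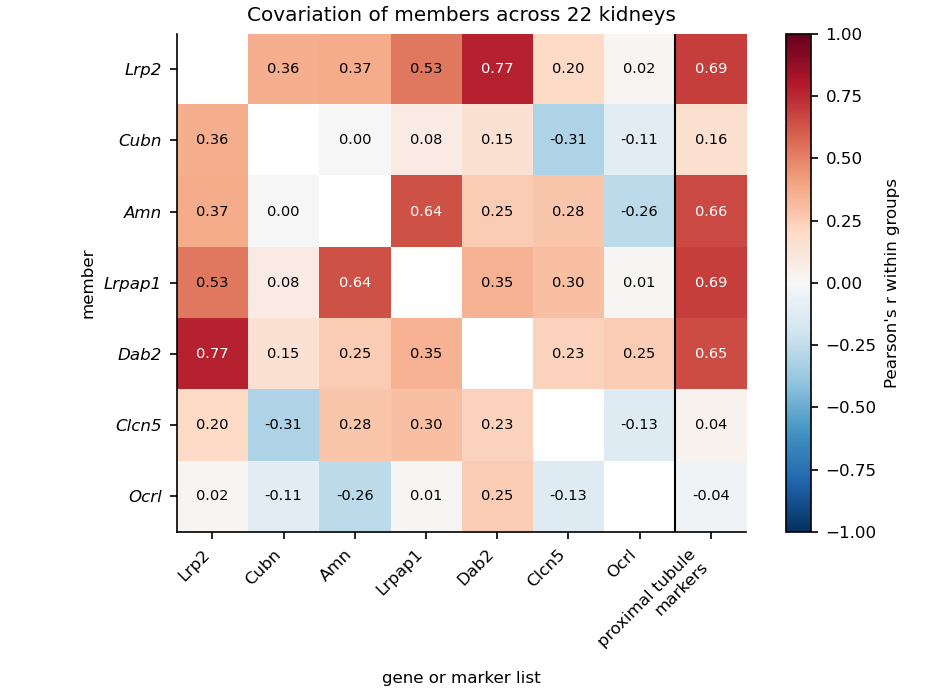
Pearson's r of each member (rows) with each other member and with the averaged proximal tubule markers (last column), within groups over 22 kidneys, on a colour scale from −1 to 1. *Lrp2*, *Amn*, *Lrpap1* and *Dab2* share high values with the markers (0.65 to 0.69), whereas *Cubn*, *Clcn5* and *Ocrl*, the members with the fewest counts, lie between −0.037 and 0.16.

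Among the 5 genes most like *Lrp2* by r within groups were *Dab2* (0.77), *Hgd* (0.73), *Slc34a1* (0.73) and *Ankrd50* (0.72). *Hgd* encodes an enzyme of tyrosine breakdown, and *Slc34a1* the phosphate transporter of the proximal tubule. The genes most like *Cubn* were *Eif1-ps2* (0.72), *Nprl3* (0.70), *Gm38305* (0.69), *Psmb6* (0.69) and *Cym* (0.66), and apart from *Psmb6*, a proteasome subunit gene at 158 CPM, they were below 10 CPM. None of the 5 is a listed proximal tubule marker. These are the top values among 12779 genes and describe these 22 kidneys.

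To show the DNA before RefSeq starts of the covarying genes, 250 bases are given for *Lrp2* and *Dab2* and for *Amn* and *Lrpap1*. *Cubn*, whose correlation with each of these genes was not significant, is shown for comparison. Sequences are those of RefSeq (GRCm38.p6), on the strand of the gene, and all 7 members had at least 1 start in that table. Bases after the start were found in the GENCODE transcripts for the other windows, but not for *Cubn*, whose RefSeq start lies upstream of the GENCODE gene, so that this start was not checked. Part of the DNA shown lies within GENCODE genes. The windows of *Lrp2* and *Lrpap1* run past the GENCODE starts at 69586065 and 35105766, and that of *Amn* does so by its last base. The window shown for *Dab2* lies inside its GENCODE gene. Capitals mark matches on either strand to 6 short motifs, which do not overlap each other in these windows. They are the GC box with the letters GGGCGG, the box named after its letters CCAAT, the E-box with the letters CACGTG, the half-site of the factor HNF1 with the letters GTTAAT, the TATA box searched as TATAAA, and the half-site of nuclear receptors searched as AGGTCA. The windows are chr2:69586030-69586279 for *Lrp2*, chr15:6386498-6386747 for the downstream start of *Dab2*, chr12:111270846-111271095 for *Amn*, chr5:35105700-35105949 for *Lrpap1* and chr2:13491877-13492126 for *Cubn*.
Lrp2: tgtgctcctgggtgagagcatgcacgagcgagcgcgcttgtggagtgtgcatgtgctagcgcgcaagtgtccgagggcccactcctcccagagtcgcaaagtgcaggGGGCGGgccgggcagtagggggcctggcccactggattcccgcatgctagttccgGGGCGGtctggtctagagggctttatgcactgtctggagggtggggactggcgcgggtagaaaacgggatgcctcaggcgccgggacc
Dab2: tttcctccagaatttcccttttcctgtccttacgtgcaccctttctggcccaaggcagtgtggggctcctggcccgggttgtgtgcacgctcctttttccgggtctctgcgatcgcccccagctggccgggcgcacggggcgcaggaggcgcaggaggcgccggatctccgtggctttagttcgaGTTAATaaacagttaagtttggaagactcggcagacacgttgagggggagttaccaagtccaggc
Amn: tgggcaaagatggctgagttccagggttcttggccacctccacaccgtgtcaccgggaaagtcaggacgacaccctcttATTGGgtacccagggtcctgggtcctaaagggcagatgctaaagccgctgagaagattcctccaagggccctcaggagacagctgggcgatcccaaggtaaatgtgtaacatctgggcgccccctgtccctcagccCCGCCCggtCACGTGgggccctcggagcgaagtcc
Lrpap1: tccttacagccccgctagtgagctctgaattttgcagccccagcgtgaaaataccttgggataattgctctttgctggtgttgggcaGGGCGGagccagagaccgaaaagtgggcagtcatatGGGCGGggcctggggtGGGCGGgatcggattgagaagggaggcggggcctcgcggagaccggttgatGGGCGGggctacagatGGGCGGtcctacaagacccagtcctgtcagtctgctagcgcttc
Cubn: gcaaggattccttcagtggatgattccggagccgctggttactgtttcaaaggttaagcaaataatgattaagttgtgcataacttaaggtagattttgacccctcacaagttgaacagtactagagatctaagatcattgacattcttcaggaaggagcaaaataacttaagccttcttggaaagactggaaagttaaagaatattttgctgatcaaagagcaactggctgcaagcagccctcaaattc

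A GC box was present in the windows of *Lrp2* (2 matches), *Lrpap1* (5 matches) and *Amn* (1 match), and 32.7% of 32851 promoter windows of this length hold one. The *Lrpap1* matches at 60 and 44 bases before the RefSeq start lie within the GENCODE gene. *Amn* also had a CCAAT box (33.8% of windows) and the E-box CACGTG (6.02% of windows), whose first base lies 26 bases before the start. The downstream start of *Dab2* had 1 HNF1 half-site (6.43% of windows), and its upstream start, at chr15:6299539-6299788 and not shown, had no match. *Cubn* had none of the 6 motifs and a GC content of 39.6%, against 66.4% for *Lrp2*, 61.2% for *Amn*, 60.8% for *Lrpap1*, 60.0% and 36.8% for the downstream and upstream starts of *Dab2* and a median of 52.4% over all windows. No motif was shared by the windows of *Lrp2* and *Dab2*. A match is a description of the letters and not a site.

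Beyond the members, 6 lists of genes around the receptors were examined, and none of their tested genes was called in any comparison. Of the adaptors of the receptor tails and the clathrin coat 15 of 17 genes were tested, of endosome sorting and recycling 21 of 23, of endosome acidification 19 of 19, of proteins that bind megalin or cubilin 12 of 15, of the receptors related to megalin 10 of 12, and of regulators 7 of 8. The median log2 fold change at 28d against sham was 0.10 for the members, 0.041 for adaptors and coat, −0.054 for endosome sorting and 0.039 for acidification, beside −0.00099 over all tested genes. At 5d against sham the medians were −0.00099, −0.012, −0.0060 and −0.0012, beside 0.00034.

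The pathway gene nearest to the threshold was *Tcn2*, which encodes transcobalamin, the carrier of vitamin B12 that megalin takes up. It ranged from 997 to 1296 CPM in sham (median 1141), from 1070 to 1192 CPM at 5d post-MI (median 1157) and from 1168 to 1426 CPM at 28d post-MI (median 1304). All 6 kidneys at 28d lay above the mean of either other group, and 5 of them above every kidney at 5d. The log2 fold change was 0.22 at 28d against sham (SE 0.051, edgeR adjusted p = 0.0994) and 0.19 at 28d against 5d (SE 0.051, edgeR adjusted p = 0.088). It passed the threshold in 2 of 10 alternative fits of each comparison, with an adjusted p of 0.00863 without the filter on low counts at 28d against sham, and in 1 of 22 fits with a kidney left out, without sham kidney 4 (adjusted p = 0.0356) for the first comparison and without kidney 1 at 28d (adjusted p = 0.0456) for the second. Over all alternatives the adjusted p ran from 0.00863 to 0.348 and from 0.0352 to 0.311.

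The other genes named by lowest p-value in their list changed by less than the test required. Among ligands, *Gc*, the vitamin D-binding protein gene, had a log2 fold change of 0.39 at 5d against sham (SE 0.14, edgeR adjusted p = 0.451). In endosome sorting, the retromer gene *Vps35* differed by −0.15 at 5d against sham (edgeR adjusted p = 0.532) with all 8 kidneys below the sham mean, *Snx3* by 0.12 at 28d against sham (adjusted p = 0.59), and the lysosomal cystine transporter gene *Ctns* by −0.25 at 28d against 5d (adjusted p = 0.394). For acidification, the proton pump subunit gene *Atp6v1e1* differed by 0.10 at 5d against sham (edgeR adjusted p = 0.548), with 7 of 8 kidneys above every sham kidney, *Atp6ap2* by −0.15 at 28d against sham (adjusted p = 0.498) and the chloride transporter gene *Clcn7* by 0.22 at 28d against 5d (adjusted p = 0.322).

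Among the coat genes, values were 0.22 for *Gipc1* at 5d against sham, −0.17 for *Eps15* at 28d against sham and 0.14 for the dynamin gene *Dnm2* at 28d against 5d on the log2 scale (edgeR adjusted p = 0.651, 0.563 and 0.69). Among the related receptors they were −0.20 for *Lrp1* at 5d against sham and −0.23 for *Lrp5* at 28d against sham (edgeR adjusted p = 0.591 and 0.536). Of the regulators, the nuclear receptor gene *Pparg* was at 5.96 ± 3.38 CPM in sham (SD, n = 8). It had log2 fold changes of −0.70 at 5d and −0.78 at 28d (edgeR adjusted p = 0.563 and 0.502). The adipocyte markers, whose list does not include any member, were summed at 849 ± 346 CPM in sham, 575 ± 326 CPM at 5d and 405 ± 148 CPM at 28d. *Pparg* is known from fat cells too, and the part of fat in its values was not tested. The vitamin D receptor gene *Vdr* differed by 0.13 at 28d against 5d (adjusted p = 0.685).

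**Figure D5:**
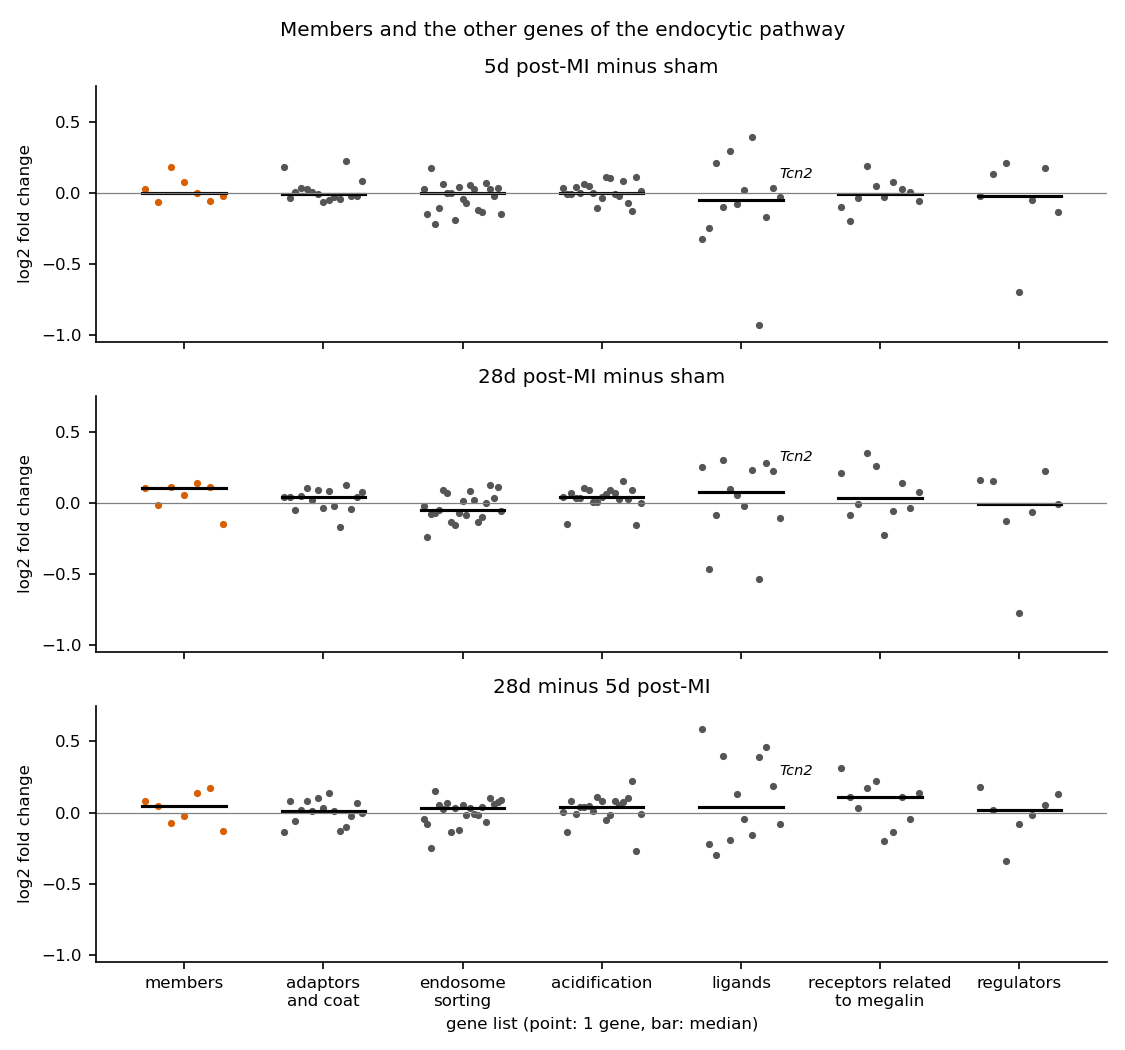
Log2 fold change (y axis) of each tested gene of the members and of 6 lists of the endocytic pathway (x axis), with 1 point per gene and a bar at the list's median, in 3 panels for the 3 comparisons. The members lie between −0.15 and 0.18, *Tcn2* reaches 0.22 at 28d against sham, and no gene in the plot passed the adjusted threshold.

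Markers of other cells were checked beside the members. No gene was called in the lists of the proximal tubule (14 of 16 tested) and its early (4 of 6) and late (4 of 4) parts, tubular injury (5 of 9), podocyte (6 of 6), thick limb (4 of 4), distal tubule and collecting duct (8 of 8), endothelium (6 of 6), macrophage (7 of 7), fibroblast (6 of 6), adipocyte (4 of 5) and urothelium (2 of 4), and none of 5 adrenal genes was tested. Of the 5 erythroid genes 4 were tested, and these haemoglobin genes rose at 5d against sham, by a log2 of 1.44 to 1.53, with adjusted p-values from 0.0355 to 0.0423 (edgeR). Their list summed to 2185 to 4094 CPM in sham and 4931 to 18947 CPM at 5d. The haemoglobin calls at 5d were kept in 3 to 10 of 22 fits with 1 kidney less, and their log2 fold changes ran from 1.25 to 1.64. *Cubn* was called in 0 of these fits, with log2 fold changes from 0.15 to 0.20. The relation between *Cubn* and the haemoglobin genes was not tested. None of the haemoglobin genes was called at 28d against sham. The macrophage list, of cells that also express *Dab2*, summed to 118 ± 15.3 CPM in sham, 103 ± 13.8 CPM at 5d and 121 ± 10.6 CPM at 28d. The part of these cells in the members' values was not tested.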

How the data were processed

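Kidney RNA was sequenced by MACE with unique molecular identifiers. The authors trimmed reads with Cutadapt, counted them with HTSeq and deposited whole-number counts per gene, without normalization. The paper's methods name mm10, whereas the submitters' processing notes name mm39 and Bowtie2, and the strand setting and annotation are not given in the sources used here. The table gives identifiers and no coordinates, so symbols and positions are those of GENCODE M21 (GRCm38), which holds 51948 of 56941 identifiers. Of 48 value columns 26 were not used, 24 of them holding values named tpm and 2 being count columns that share a name and could not be assigned to a kidney (1 at 5d and 1 at 28d post-MI).

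The software was edgeR (version 4.0.16), limma (3.58.1) and DESeq2 (1.42.0), run in R (4.3.3), and scipy (1.17.1), run in Python (3.11.15). Genes passing filterByExpr (minimum count 10; 12780 of 30116 with a count, all members among them) were TMM-scaled and fitted in 3 groups by edgeR's robust quasi-likelihood model. Genes were called at a Benjamini-Hochberg adjusted p under 0.05. The fits were tested on simulated data whose planted changes were larger than any change of a member. That test does not cover changes as small as those of the members. The labels number the kidneys of a group without naming the animals. The paper gives 8 sham mice, 9 mice at 5d and 7 at 28d post-MI, as many as the labelled kidneys. P-values set differences between groups against the spread between kidneys. Alternatives were other normalizations, filters, tools, groupings, a replicate block, a proximal tubule covariate and each kidney left out. The members, lists and tests were chosen with earlier results of these data known. The fits and correlations without 2 kidneys rich in adrenal genes and the proximal tubule correlations were added after the data were seen. The text names all members, in each pathway list the called genes or else the gene of lowest p per comparison, called marker genes, and the 5 genes most like *Lrp2* and *Cubn*, except some that are not reported here. *Slc34a1*, *Slc5a2* and the antisense genes fall outside this rule and were chosen as checks after their values were seen. Floors and intervals of counts cover counting error only.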

Additional observations from a re-analysis of the deposited data

Results flagged for a closer look

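Within groups, 81 sets of values were examined for a kidney that stood far from the others, and 8 values did so, where about 1 in 20 sets would be expected to by chance. Among the 21 sets of members there were 3. Sham kidney 4 had 846.9 CPM of *Lrp2* and 366.8 CPM of *Dab2*, the highest of its group for both genes, and kidney 7 at 5d post-MI had 608.5 CPM of *Lrp2*, the lowest of its group. The correlation of *Lrp2* with *Dab2* without this pair of kidneys was r = 0.82.

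Among the other named genes, sham kidney 6 had 18.44 CPM of *Gipc1*, sham kidney 4 had 577.3 CPM of *Hba-a1* and 215.3 CPM of *Hbb-bt*, and kidney 2 at 28d post-MI had 2137 CPM of *Hbb-bs* and 617.7 CPM of *Hbb-bt*.

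The change from sham differed between 28d and 5d post-MI for 4 haemoglobin genes, by the contrast of both MI groups. The log2 difference was −1.78 for *Hba-a1* and −1.80 for *Hba-a2* (edgeR adjusted p = 0.00375 for both), −1.75 for *Hbb-bs* (adjusted p = 0.00616) and −1.88 for *Hbb-bt* (adjusted p = 0.00661), each lower in 6 of 6 kidneys at 28d than the 5d mean. No member differed in this way.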

How the results depend on the processing

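No member was called in any alternative, neither in the 462 values from fits without 1 kidney nor in the 210 values from 10 other settings with edgeR, DESeq2 and limma. The lowest adjusted p was 0.101 (*Lrpap1*, 28d against 5d post-MI, without kidney 1 at 5d). Log2 fold changes near 0 turned sign in 5 of the 210 values. *Lrp2* at 5d against sham was 0.005 without the filter on low counts and 0.0064 with the proximal tubule covariate, and *Amn* at 5d against sham was −0.008 without the sham kidneys rich in adrenal genes. With 1 kidney left out, *Lrp2* at 5d ran from −0.022 to 0.037, *Ocrl* at 5d from −0.08 to 0.0048 and *Clcn5* at 28d against sham from −0.056 to 0.014. Mean CPM by library totals moved by less than 1 SD for all 21 values of a member in a group. With library totals, without the 2 farthest kidneys or without the adrenal-rich kidneys, 2 pairs of members each were correlated past the threshold, as with TMM, but the pairs were *Lrp2* with *Dab2* and *Lrp2* with *Lrpap1* without the 2 farthest kidneys.

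Counts of called genes over the whole table depended on the fit, and the cause was not tested. They are given in the order 5d against sham, 28d against sham and 28d against 5d. The edgeR fit used for the results above called 9, 3 and 53 genes, which are not the study's own counts. The counts were 5, 1 and 51 by library totals, 80, 94 and 160 without the filter, 36, 33 and 91 with DESeq2, 29, 70 and 89 with DESeq2 on 2 groups alone, 2, 31 and 26 with edgeR on 2 groups alone, 5, 5 and 50 with limma voom, 14, 2 and 58 with the proximal tubule covariate and 1, 1 and 53 without the kidneys rich in adrenal genes. With 1 kidney left out they ran from 1 to 38 (38 without kidney 1 at 5d), from 0 to 29 (29 without sham kidney 8; 0 without kidney 2 or 7 at 28d) and from 41 to 84 (84 without kidney 1 at 5d).

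Replicate numbers are shared between groups, and a fit with the replicate number as a block called 2, 24 and 80 genes and 0 members, with *Lrp2* at 5d against sham at 0.013 and *Clcn5* at 28d against sham at 0.0043. The kidneys share only a number: over 18 pairs of the same number, deviations correlated between −0.127 and 0.0899, and 2 of 22 kidneys correlated best with their own number. The depth limits *Ocrl* most, with 21 to 60 counts per kidney.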
